A study of Mus musculus with 24 samples.

Results

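Tamoxifen given together with β-estradiol was compared with the vector control given β-estradiol in P815, a mouse mastocytoma line that grows as a continuous culture of neoplastic mast cells. The comparison takes 6 of the 24 libraries of the series, chosen by their treatment labels: 3 of cells given tamoxifen and β-estradiol for 24 h (Tamo_E2) and 3 of cells transfected with a negative control vector and given β-estradiol for 24 h (NC_E2). All 6 libraries therefore carry β-estradiol. NC_E2 cells carry a vector and Tamo_E2 cells are not labelled as carrying one, so the drug and the transfection cannot be told apart. No doses are labelled, and whether replicates came from separate cultures is not stated, so the p-values reflect only the spread between same-group libraries over all 24 in the fit, which may be technical. Further libraries served as reference: 3 with the vector and no β-estradiol (NC), 3 with tamoxifen alone for 24 h (Tamo), and 3 with β-estradiol and ICI-182780 for 24 h (ICI_E2). The remaining groups enter the expression filter and the joint fit: 3 libraries with ICI-182780 alone for 24 h (ICI), 3 of cells carrying an shRNA against mouse ESR1 (SH), and 3 of such cells given β-estradiol for 24 h (SH_E2).

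Estradiol acts mainly through the nuclear receptors estrogen receptor alpha and beta, which bind estrogen response elements in DNA, and through a membrane receptor. Tamoxifen, a triphenylethylene, is a selective modulator that blocks these nuclear receptors in some tissues and activates them in others, whereas ICI-182780 (fulvestrant) is a steroidal antagonist that leads to loss of the receptor. Apart from its receptors, tamoxifen is known to bind enzymes of late cholesterol synthesis and, being a cationic amphiphile, to collect in lysosomes. Gene lists for sterols, lysosomes and stress pathways were therefore read beside those for estrogen targets.

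The 6 libraries held 44.7 to 58.5 M estimated counts and 18989 to 19531 detected genes each, and the correlation between any 2 of them was 0.9663 to 0.9769 (log scale, across genes). The first principal component, 30.6% of the variance, set replicate 1 of both groups apart from replicates 2 and 3. On the second component, 20.4%, the groups overlapped, although each Tamo_E2 library scored above the NC_E2 library of the same number. Mast cell identity was carried by Kit at 101 to 136 FPKM, Cpa3 at 188 to 311, Gata2 at 146 to 166 and Srgn at 138 to 176. Fcer1g was at 142 to 223 FPKM, Hdc at 25.9 to 30.4 and Mitf at 12 to 16. Tpsab1 was at 3.03 to 7.62 FPKM, Cma1 at 3.39 to 4.11 and Tpsb2 at 0.404 to 1.14. Fcer1a and Ms4a2, which encode the alpha and beta chains of the high-affinity IgE receptor, were at 0 to 43 and 0 to 40 estimated counts. Markers of other lineages were mostly low, with some exceptions. The macrophage and granulocyte list summed to 22.9 to 25.4 FPKM in NC_E2 and 25.04 to 29.4 in Tamo_E2. Most of that came from Cd68 (18.4 to 24.5 FPKM) and Lyz2 (3.04 to 4.78). Of its 14 members 12 stayed below 1 FPKM in all 6 libraries, and Itgam, Ly6g, Elane and S100a8 were at 0. The lymphoid list summed to at most 0.341 FPKM, with Ms4a1, Ncr1, Klrb1c and Trac at 0. The erythroid and megakaryocyte list summed to 35.1 to 38.5 FPKM, and the fibroblast, endothelial and epithelial list to 8.80 to 12.9. In the former, Epor was at 13.2 to 15.5 FPKM, Itga2b at 10.6 to 14.3 and Pf4 at 4.9 to 9.55, and 8 of 14 members stayed below 1. In the latter, Pdgfrb was at 7.15 to 11.6 FPKM, and 13 of 15 members stayed below 1.

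The receptor of the ligand was scarce in both groups. Esr1, the gene of estrogen receptor alpha, was at 0.389, 0.319 and 0.234 FPKM in NC_E2 replicates 1 to 3 and at 0.374, 0.360 and 0.269 in Tamo_E2. Those levels rest on 213 to 346 estimated counts per library, overlap between the groups, and lie below the level required for testing. Esr2, estrogen receptor beta, had 0 counts in all 6 libraries, Gper1, the membrane receptor, 0 to 8, and Pgr, a classical target, 0 to 4. In bulk RNA such as this, fewer cells expressing a gene and less RNA per cell cannot be told apart.

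No gene passed between Tamo_E2 and NC_E2. Of 12183 genes tested (at least 1 FPKM in at least 3 of the 24 libraries), edgeR's quasi-likelihood test called 0 at an adjusted p under 0.05, a percent called of 0, and the smallest adjusted p was 1. At an unadjusted p under 0.05 there were 301 genes, 2.47% of those tested, of which 157 were higher with tamoxifen (1.29%) and 144 lower (1.18%). The groups did not overlap in FPKM for 1054 genes (8.65%), 537 higher (4.41%) and 517 lower (4.24%). With the replicate number as a block, 0 genes passed (smallest edgeR adjusted p = 0.34) and 789 had an unadjusted p under 0.05 (6.48%).

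The size of difference that the 6 libraries still allow was read from the 95% intervals. The median absolute log2 fold change was 0.12 and the median SE was 0.21. The interval lay wholly within a 2-fold change either way for 79.9% of genes and within 1.5-fold for 50.5%, and with the replicate block for 84.3% and 65%. Among the 2696 genes with a mean of 20 FPKM or more, 76.4% were bounded within 1.5-fold. A point estimate beyond 2-fold was found for 217 genes, and the groups did not overlap for 74 of those.

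**Figure D1:**
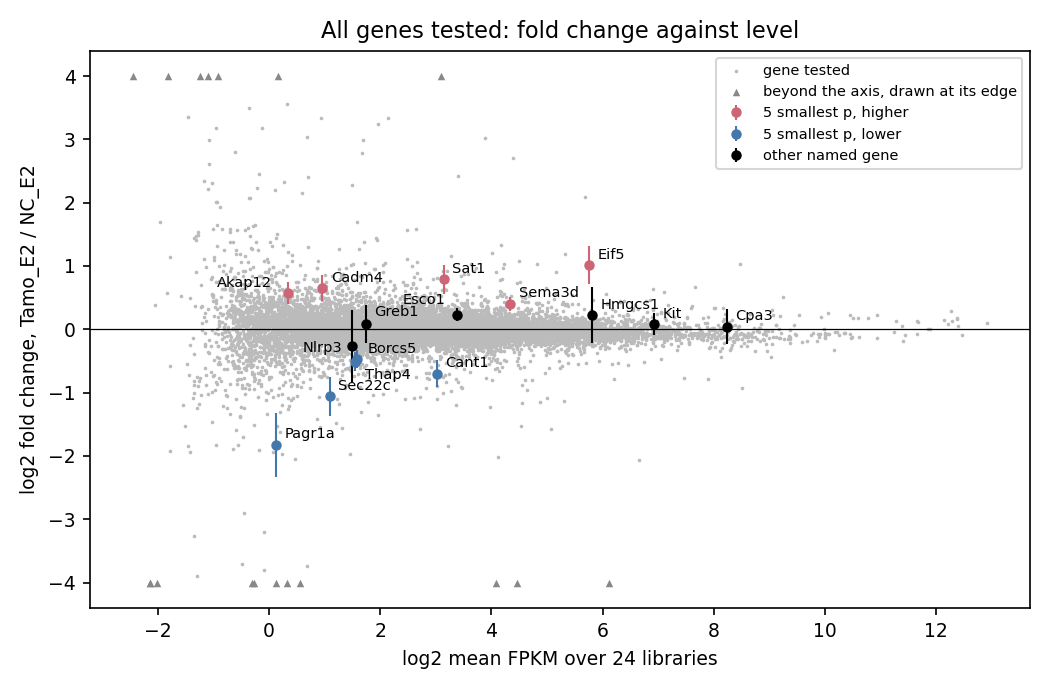
Each grey point is a gene: log2 mean FPKM over 24 libraries (horizontal) against the log2 fold change of Tamo_E2 over NC_E2 (vertical), with named genes labelled and bars of 1 SE; triangles are genes beyond the axis. Of the 12183 genes 0 passed, and the named genes lie between -1.82 (Pagr1a) and 1.01 (Eif5).

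The 5 protein-coding genes with the smallest p among those higher with tamoxifen were Sema3d, Akap12, Sat1, Eif5 and Cadm4, none of which passed. Sema3d (ENSMUSG00000040254, chr5:12383385-12588948, GRCm38), which encodes a secreted semaphorin, was at 18.8, 17.1 and 14.9 FPKM in NC_E2 and 21.5, 25.2 and 20.1 in Tamo_E2. All 3 Tamo_E2 libraries exceeded all 3 NC_E2 libraries, and the log2 fold change was 0.40 ± 0.11 (SE; 95% interval 0.18 to 0.63, edgeR adjusted p = 1). The vector control without β-estradiol, at 22.1, 22.6 and 18.6 FPKM, stood at the level of Tamo_E2, and tamoxifen alone was lower, at 19.6, 16.1 and 17.3. The change of the arm difference with β-estradiol was 0.65 ± 0.15 (edgeR adjusted p = 0.579).

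Eif5 (ENSMUSG00000021282, chr12:111538016-111546752), a translation initiation factor that triggers GTP hydrolysis on the scanning ribosome, had the largest fold of the 5. It was at 28.8, 37.7 and 33.1 FPKM in NC_E2 and 61.0, 89.9 and 49.1 in Tamo_E2, a log2 fold change of 1.01 ± 0.30 (edgeR adjusted p = 1). Again the groups did not overlap, and NC without β-estradiol was high, at 57.6, 81.4 and 75.8 FPKM. With the replicate block it stayed above the threshold (edgeR adjusted p = 0.486). ICI_E2 libraries were spread between those levels, at 30.2, 67.7 and 43.2 FPKM.

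Sat1 (ENSMUSG00000025283, chrX:155213132-155216449) encodes spermidine/spermine N1-acetyltransferase, the rate-limiting enzyme of polyamine catabolism. It stood at 8.57, 7.43 and 6.03 FPKM in NC_E2 and 12.7, 14.6 and 10.6 in Tamo_E2 (log2 fold change 0.79 ± 0.23, edgeR adjusted p = 1). Of the 10 genes chosen by smallest p it was the only one to keep its direction in every same-numbered pair without β-estradiol, at 6.04, 9.98 and 5.47 FPKM in NC and 9.54, 12.3 and 11.8 in Tamo (0.65 ± 0.23, edgeR adjusted p = 1). Those libraries share none with the comparison in β-estradiol, although NC replicate 2 overlapped the Tamo range. ICI_E2 was at 8.82, 12.5 and 8.42 FPKM, and Tamo_E2 minus ICI_E2 was 0.34 ± 0.23 (edgeR adjusted p = 1).

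Akap12 (ENSMUSG00000038587, chr10:4266380-4359470), a scaffold for protein kinases A and C, was at 0.861, 0.696 and 0.697 FPKM in NC_E2 and 1.143, 1.102 and 1.089 in Tamo_E2 (0.57 ± 0.17, edgeR adjusted p = 1). Cadm4 (ENSMUSG00000054793, chr7:24482023-24504539), a cell adhesion molecule, was at 1.499, 1.305 and 0.946 FPKM in NC_E2 and 2.09, 1.75 and 2.04 in Tamo_E2 (0.66 ± 0.21, edgeR adjusted p = 1). For both genes the groups did not overlap, and NC without β-estradiol had 1.17 to 1.44 FPKM of Akap12 and 1.64 to 2.51 of Cadm4, above all 3 NC_E2 libraries.

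Among genes lower with tamoxifen the smallest p belonged to Pagr1a, Sec22c, Thap4, Borcs5 and Cant1, again with an edgeR adjusted p of 1 each. Cant1 (ENSMUSG00000025575, chr11:118406289-118419086), a calcium-activated nucleotidase of the secretory pathway, was at 9.52, 9.17 and 8.60 FPKM in NC_E2 and 4.26, 6.401 and 5.98 in Tamo_E2 (log2 fold change -0.70 ± 0.21). The groups did not overlap. Without β-estradiol Cant1 was at 7.04, 9.48 and 7.24 FPKM in NC and 8.31, 10.3 and 7.38 in Tamo, higher in 3 of 3 pairs.

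Sec22c (ENSMUSG00000061536, chr9:121680045-121705490), a protein of transport between endoplasmic reticulum and Golgi, was at 2.42, 2.09 and 2.20 FPKM in NC_E2 and 0.952, 1.07 and 1.16 in Tamo_E2 (-1.06 ± 0.31). The lower level was also seen in single libraries of another group: ICI_E2 was at 2.32, 0.878 and 0.986 FPKM. Borcs5 (ENSMUSG00000042992, chr6:134639510-134711187), a subunit of the BORC complex that positions lysosomes, was at 3.78, 3.73 and 3.43 FPKM in NC_E2 and 2.78, 2.52 and 2.51 in Tamo_E2 (-0.47 ± 0.14). Its levels in ICI_E2, 2.83, 2.79 and 2.70 FPKM, were close to those of Tamo_E2.

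Thap4 (ENSMUSG00000026279, chr1:93701935-93754780), which encodes a THAP zinc finger protein, was at 2.89, 3.48 and 3.23 FPKM in NC_E2 and 2.38, 2.23 and 2.07 in Tamo_E2 (-0.51 ± 0.15). Atg4b overlaps it on the other strand and differed by -0.02. Pagr1a (ENSMUSG00000030680, chr7:127015033-127017352), a partner of histone methyltransferase complexes, was at 0.795, 3.55 and 3.89 FPKM in NC_E2 and 0.634, 1.01 and 0.652 in Tamo_E2 (-1.82 ± 0.51). There the groups overlapped, and NC_E2 replicates 2 and 3 were the high libraries: NC ran from 0.530 to 0.874, Tamo from 0.532 to 0.745 and ICI_E2 from 0.772 to 1.34. Pagr1a overlaps Gm42742 and Pagr1b on its own strand, so its counts are uncertain.

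**Figure D2:**
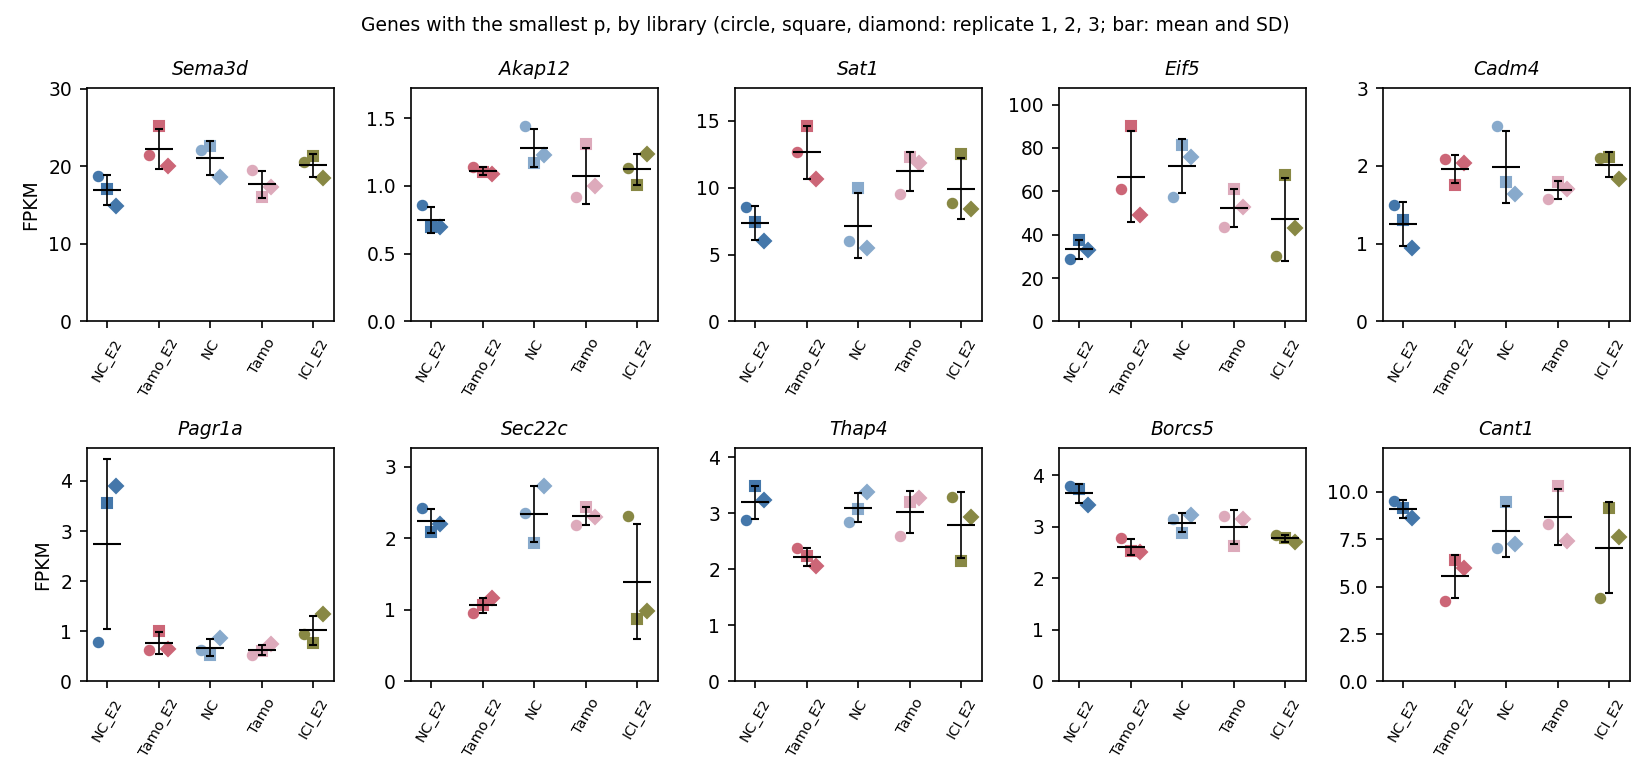
FPKM (vertical, from 0) of the 10 genes with the smallest p in 5 groups of 3 libraries; circles, squares and diamonds are replicates 1, 2 and 3, and bars are the group mean and SD. Tamo_E2 and NC_E2 overlap in Pagr1a alone of the 10 genes, where NC_E2 replicate 1 (0.795 FPKM) is as low as Tamo_E2.

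The smallest p values of any kind belonged to short RNA genes with few counts. Gm22027, a small nucleolar RNA gene, had 0, 0 and 0 estimated counts in NC_E2 and 3, 3 and 10 in Tamo_E2 (edgeR adjusted p = 1). It reached 1 FPKM only in Tamo_E2 replicate 3 (1.14), ICI_E2 replicate 1 (1.16) and SH replicate 1 (1.01). It was thus tested only through a library of its higher group, and its p cannot count as evidence. Without β-estradiol it had 2, 4 and 1 counts in NC and 3, 3 and 3 in Tamo. Gm47284, a microRNA gene, had 16, 16 and 8 in NC_E2 and 2, 1 and 1 in Tamo_E2 (edgeR adjusted p = 1). Both were chosen after their values were seen.

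When edgeR was run on the 6 libraries alone it called 2 genes, Nup62 and Gm10045, which are named here for that reason after their values were seen. Nup62, a nuclear pore protein, was at 14.97, 18.9 and 18.6 FPKM in NC_E2 and 65.7, 71.9 and 83.6 in Tamo_E2. It was also low, at 11.98 to 18.5 FPKM, in 6 libraries of other groups: NC replicates 1 and 2, ICI replicate 3, SH replicate 2, and SH_E2 replicates 1 and 2. Atf5 overlaps it on the other strand and differed by -0.05. Gm10045 was at 99.3, 109.5 and 117 FPKM in NC_E2 and 2.93, 4.15 and 1.31 in Tamo_E2. Tamo replicate 2 was just as low (1.08 FPKM) beside 117 and 118 in Tamo replicates 1 and 3, and ICI_E2 replicates 2 and 3, SH replicates 2 and 3 and SH_E2 replicate 3 were low as well. In the fit over all libraries, which takes the spread from every group, both had an edgeR adjusted p of 1 (log2 fold change 2.09 ± 0.68 for Nup62 and -5.27 ± 1.72 for Gm10045).

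Gene lists were then read by their counts and medians, beside the whole table, in which 49.1% of genes had a log2 fold change above 0 and the median was -0.0035. The 32 lists held 716 distinct tested genes, of which 0 passed, 15 (2.09%) had an unadjusted p under 0.05 and 64 (8.94%) did not overlap between the groups, against 2.47% and 8.65% of all genes. List members named below other than Greb1, Kit, Cpa3, Hmgcs1, Nlrp3 and Esco1 were chosen after their values were seen.

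Estrogen targets stood slightly above the table. Of 18 tested estrogen response genes 14 were higher and 4 lower, with a median of 0.09 and pair medians of 0.13, 0.05 and 0.06. In 3 of 3 pairs 4 of the 18 were higher and 1 lower, against 19.1% and 18.6% of all genes. The groups overlapped in FPKM for each of the 18, while 8.65% of all genes did not overlap. Greb1, a coactivator and classical target in breast cells, was at 2.42, 3.33 and 2.98 FPKM in NC_E2 and 3.32, 3.83 and 2.05 in Tamo_E2, overlapping widely (0.08 ± 0.30, 95% interval -0.54 to 0.71). Ccnd1, cyclin D1, was at 107, 108 and 134 FPKM against 128, 112 and 146 (0.15 ± 0.14), higher in each pair. The 16 tested receptors and coregulators had a median of 0.11, 10 higher and 6 lower. That median was 0.02 after the centring on transcript length described below. No window of the 28 promoter windows found for 19 of the 30 listed response genes held the full estrogen response element, GGTCA and TGACC separated by any 3 bases, on either strand, and 0.07% of all 32851 windows did.

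Genes of cholesterol synthesis were level between the groups. Of 20 tested, 11 were higher and 9 lower, with a median of 0.03 and a range from -0.29 to 0.24, and their summed FPKM was 596, 822 and 862 in NC_E2 and 645, 825 and 865 in Tamo_E2. Most of the spread ran between replicate 1 and the others in both groups. With the replicate block the 95% interval lay within 1.5-fold for 14 of the 20, against 6 without it. Hmgcs1, the HMG-CoA synthase that feeds the pathway, was at 29.9, 66.1 and 59.9 FPKM in NC_E2 and 36.7, 75.5 and 68.4 in Tamo_E2. It was higher in 3 of 3 pairs with β-estradiol and lower in 3 of 3 without it (0.22 ± 0.45, edgeR adjusted p = 1). The sequence before its start is shown because it holds the letters of a sterol regulatory element, TCACNCCAC, searched on both strands; a match of letters does not show binding. The stretch is chr13:119690101-119690350 on the plus strand (GRCm38.p6, RefSeq), with the match in capitals.
Hmgcs1: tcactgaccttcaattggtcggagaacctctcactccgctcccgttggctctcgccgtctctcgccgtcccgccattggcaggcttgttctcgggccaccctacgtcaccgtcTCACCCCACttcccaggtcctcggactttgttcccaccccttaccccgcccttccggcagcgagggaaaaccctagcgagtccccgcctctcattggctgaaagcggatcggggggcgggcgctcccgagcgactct
The match lies at 119690214 to 119690222. Of the 20 synthesis genes, 15 had promoter windows in RefSeq, 18 in all, each of 300 bases (the 250 before the gene start, as printed for Hmgcs1, and 50 after it), and 1 held these letters (5.56%), against 1.24% of all windows.

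Uptake and regulation of cholesterol gave a median of 0.00 over 17 tested genes, 9 higher and 8 lower. Npc1, which exports cholesterol from lysosomes, was at 7.93, 7.36 and 7.17 FPKM in NC_E2 and 9.58, 9.10 and 9.14 in Tamo_E2 without overlap (0.32 ± 0.14, edgeR adjusted p = 1). Lpcat3, a phospholipid remodelling enzyme, was at 35.4, 34.5 and 35.0 FPKM against 29.8, 32.0 and 28.6 (-0.21 ± 0.09, edgeR adjusted p = 1). Of 34 lysosomal and proton pump genes 24 were higher and 10 lower (median 0.06), and 27 of the 34 intervals lay within 1.5-fold.

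**Figure D3:**
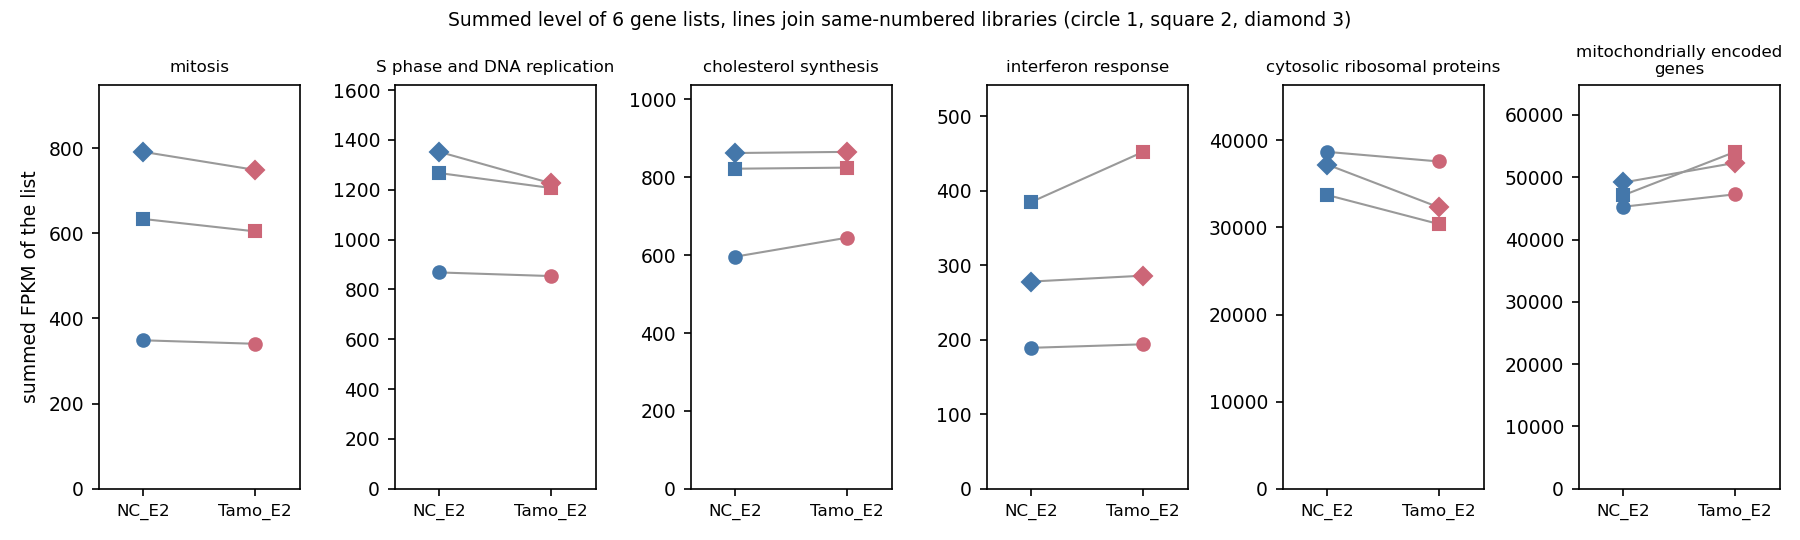
Summed FPKM (vertical, from 0) of 6 gene lists in each library; grey lines join the same-numbered NC_E2 and Tamo_E2 libraries. Mitosis and cholesterol synthesis differ more between replicate 1 and the others than between treatments, as in the mitosis sums of 349, 633 and 791 in NC_E2 and 340, 604 and 749 in Tamo_E2.

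Proliferation genes showed the replicate structure most. The 32 mitosis genes summed to 349, 633 and 791 FPKM in NC_E2 and 340, 604 and 749 in Tamo_E2, with 15 higher, 17 lower and a median of -0.05. Without the block the 95% interval lay within 1.5-fold for 0 of the 32, and with it for 31. In 3 of 3 pairs 6 of the 32 were higher and 9 lower, against 19.1% and 18.6% of all genes. The log2 fold changes of the list ran from -0.28 to 0.23, with Mki67 at the upper end. Mki67, a nuclear protein of cycling cells and 1 of those 6, was at 6.55, 12.2 and 14.6 FPKM in NC_E2 and 7.56, 13.5 and 17.9 in Tamo_E2 (0.23 ± 0.42, edgeR adjusted p = 1). Of 32 genes of S phase 27 were lower and 5 higher (median -0.07). Their intervals lay within 1.5-fold for 10 of the 32 without the block and for 31 with it. Pair 1 was level, with a median of 0.002 and 16 of the 32 higher. Pairs 2 and 3 had medians of -0.10 and -0.11, with 4 and 7 of the 32 higher. With 1 library left out, which breaks up a pair, the S phase median ran from -0.25 (without NC_E2 replicate 1) to 0.08 (without Tamo_E2 replicate 1) and the mitosis median from -0.30 to 0.24 under the same omissions. G1 and MYC network genes had a median of 0.03 over 25 genes, p53 targets 0.03 over 21, and the BCL2 family 0.02 over 19. Of these 19 genes of the BCL2 family 11 were higher and 8 lower, the largest log2 fold change being 1.04. Without overlap 3 of the 19 were higher and 1 lower, against 4.41% and 4.24% of all genes. The lower one, the pro-apoptotic member Bad, was at 10.5, 10.4 and 12.4 FPKM in NC_E2 and 8.19, 8.81 and 9.54 in Tamo_E2 (-0.32 ± 0.13, edgeR adjusted p = 1).

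Of the signalling lists, those of the MAPK pathway and of NF-kB had medians above 0. The inflammasome list did not (median -0.04 over 6 genes, 3 higher and 3 lower). Of 29 tested feedback and immediate early genes of the MAPK pathway, 23 were higher and 6 lower (median 0.13), with pair medians of 0.24, 0.08 and 0.09. In 3 of 3 pairs 14 of the 29 were higher and 1 lower, against 19.1% and 18.6% of all genes. The groups overlapped in FPKM for each of the 29, while 8.65% of all genes did not overlap. An edgeR unadjusted p under 0.05 was found for 0 of the 29, against 2.47% of all genes. Klf6, a Krüppel-like factor, was at 43.7, 63.1 and 47.4 FPKM in NC_E2 and 60.1, 79.7 and 62.9 in Tamo_E2 (0.40 ± 0.23, edgeR adjusted p = 1). Jun, a subunit of AP-1, was at 20.2, 35.8 and 34.7 FPKM against 32.2, 40.5 and 41.6 (0.34 ± 0.27). The list's median was 0.19 between Tamo and NC without β-estradiol, with 24 of 29 higher, and 0.20 between Tamo_E2 and ICI_E2.

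Of 25 NF-kB and cytokine genes 21 were higher and 4 lower (median 0.15, pair medians 0.18, 0.16 and 0.13). Of 24 interferon response genes 21 were higher and 3 lower (median 0.23, pair medians 0.07, 0.27 and 0.19). The interferon list summed to 189, 385 and 278 FPKM in NC_E2 and 194, 452 and 286 in Tamo_E2, so that both replicate 2 libraries were the high ones. Without Tamo_E2 replicate 2, which breaks up a pair, the medians turned to -0.04 for NF-kB and -0.16 for interferon. Over the 16 alternatives run they reached 0.37 for NF-kB and 0.57 for interferon at the other end. Nlrp3, the sensor of the inflammasome, was at 6.89, 7.78 and 3.28 FPKM in NC_E2 and 5.91, 5.08 and 3.86 in Tamo_E2 (-0.26 ± 0.57).

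Mast cell genes were close to level, with 21 of 28 higher and a median of 0.05, which was -0.05 without Tamo_E2 replicate 1. Kit was at 136, 128 and 101 FPKM in NC_E2 and 133, 133 and 117 in Tamo_E2 (0.08 ± 0.17), and Cpa3, the mast cell carboxypeptidase, at 306, 188 and 195 against 311, 205 and 190 (0.04 ± 0.27). Both overlapped. The log2 fold changes of the list ran from -1.53 to 0.60, so its largest change was a fall, in a gene not named here. At the upper end, Mrgprb1, a mast cell receptor gene, was at 4.12, 2.97 and 2.75 FPKM in NC_E2 and 6.03, 4.33 and 4.43 in Tamo_E2 (0.60 ± 0.22, edgeR adjusted p = 1). Hpgds, the hematopoietic prostaglandin D synthase, was at 15.5, 17.8 and 15.5 FPKM against 19.8, 20.1 and 18.2 (0.26 ± 0.10, edgeR adjusted p = 1). Of the stress lists, the unfolded protein response had a median of 0.02 over 23 genes, ATF4 targets -0.03 over 27, NRF2 and glutathione genes -0.05 over 21, and xenobiotic metabolism -0.05 over 10. Heat shock genes had -0.00 over 17, with Hsf1, their master factor, at 4.06, 4.09 and 3.61 FPKM in NC_E2 and 6.61, 4.75 and 5.49 in Tamo_E2 (0.53 ± 0.19, edgeR adjusted p = 1). Of these stress medians, that of xenobiotic metabolism alone kept its sign in the 16 alternatives run. The pair medians of that list were nonetheless of mixed sign, at -0.11, -0.005 and 0.03, with 6 of the 10 genes higher in pair 3.

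The lists with the most members on one side were those of ribosomes and mitochondria. Of 78 cytosolic ribosomal protein genes 73 were lower with tamoxifen and 5 higher (median -0.12), with pair medians of -0.04, -0.11 and -0.19. They summed to 38660, 33710 and 37200 FPKM in NC_E2 and 37560, 30370 and 32290 in Tamo_E2, lower in each pair although the groups overlap. Rps14, a small subunit protein, was at 293, 293 and 337 FPKM in NC_E2 and 271, 218 and 238 in Tamo_E2 (-0.34 ± 0.14, edgeR adjusted p = 1). Ribosomal protein genes have many processed pseudogenes, so the split of reads among copies is uncertain.

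Of 74 nuclear genes of oxidative phosphorylation 66 were lower and 8 higher (median -0.12, pair medians -0.06, -0.13 and -0.18), and 22 were lower without overlap, against 4.24% of all genes. Ndufs7, a complex I subunit, was at 44.7, 41.6 and 45.03 FPKM in NC_E2 and 38.3, 33.5 and 33.3 in Tamo_E2 (-0.31 ± 0.11, edgeR adjusted p = 1). The 13 mitochondrially encoded genes lay on the other side, 13 higher and 0 lower (median 0.14), and summed to 45260, 47100 and 49150 FPKM in NC_E2 and 47250, 54060 and 52300 in Tamo_E2. Their share of all counts was 4.68%, 4.83% and 5.03% in NC_E2 and 4.89%, 5.53% and 5.27% in Tamo_E2. mt-Nd5, a complex I subunit, was at 1365, 1287 and 1277 FPKM against 1449, 1527 and 1430 (0.17 ± 0.08, edgeR adjusted p = 1). Between Tamo_E2 and ICI_E2 the medians were -0.13 for ribosomal proteins, -0.14 for nuclear oxidative phosphorylation and -0.03 for mitochondrially encoded genes; between ICI_E2 and NC_E2, which shares the NC_E2 libraries, they were 0.01, 0.01 and 0.17. Without β-estradiol they were 0.06, 0.04 and -0.07.

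**Figure D4:**
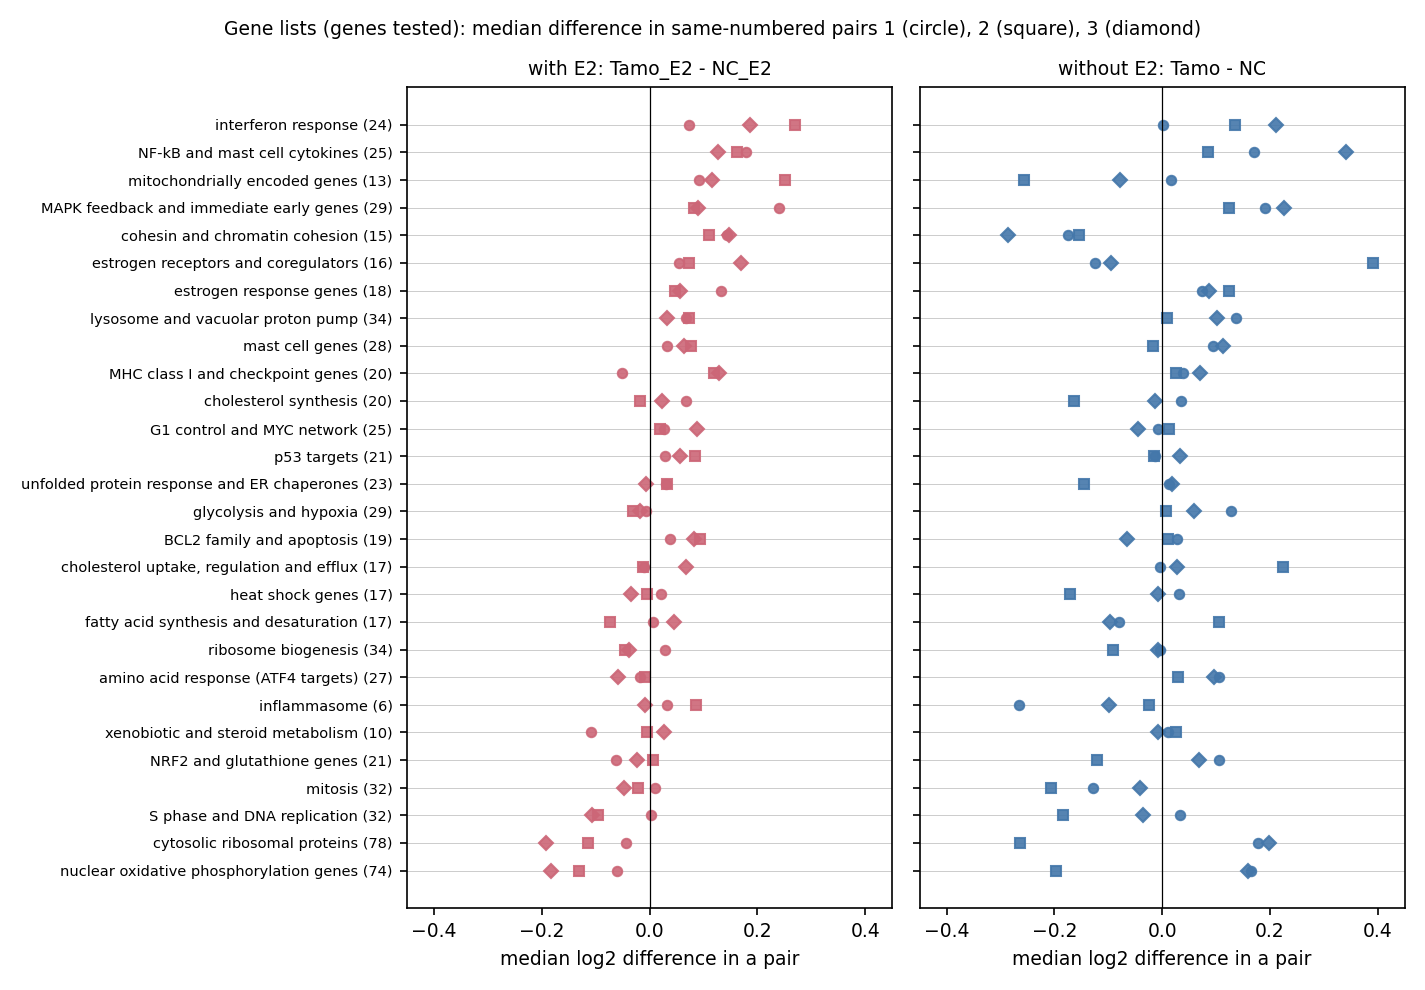
Median log2 difference over the tested genes of each list (number in brackets) in same-numbered pairs 1 (circle), 2 (square) and 3 (diamond), with β-estradiol (left) and without (right). Ribosomal protein and nuclear oxidative phosphorylation genes are below 0 in the 3 pairs on the left (-0.04 to -0.19) and on both sides of 0 on the right.

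Transcript length moved with these lists. Over 9924 coding genes with an annotated length, split into 5 bins of near equal size by their longest transcript, the median log2 fold change ran from -0.09 in the shortest bin (171 to 1928 bases) through -0.05, -0.01 and 0.03 to 0.12 in the longest (5119 to 40378 bases). The share of genes higher with tamoxifen went from 27% to 78.3%. The order held in each pair, from -0.05 to 0.06 in pair 1, -0.07 to 0.11 in pair 2 and -0.13 to 0.19 in pair 3. Between Tamo_E2 and ICI_E2 it ran from -0.10 to 0.11, and between Tamo and NC without β-estradiol the same ends were 0.03 and 0.01.

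Ribosomal protein and oxidative phosphorylation genes are short, with median longest transcripts of 1076.5 and 1093.5 bases against 3316 for all coding genes tested. After each gene was centred on genes of its own length, the median was -0.03 for ribosomal proteins (from -0.12), -0.04 for nuclear oxidative phosphorylation (from -0.12) and 0.03 for cohesin genes (from 0.12). For the receptors and coregulators it was 0.02 (from 0.11). It was 0.15 for the MAPK list (from 0.13), 0.09 for estrogen response genes (from 0.09) and 0.24 for mitochondrially encoded genes (from 0.14). Single libraries of other groups differed by more: the median deviation of the longest bin minus that of the shortest was -0.11, 0.00 and -0.24 in NC_E2, 0.00, 0.18 and 0.09 in Tamo_E2, and ran from -0.38 in Tamo replicate 3 to 0.55 in Tamo replicate 2.

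**Figure D5:**
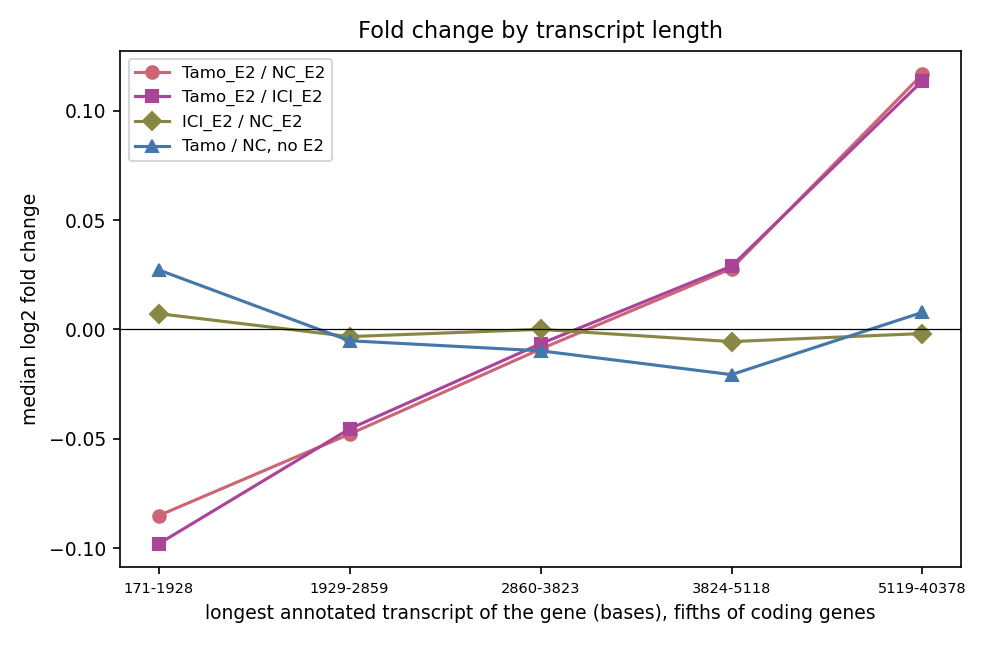
Median log2 fold change (vertical) of coding genes in 5 bins of longest annotated transcript length (horizontal, bases) for 4 contrasts. Tamo_E2 over NC_E2 and Tamo_E2 over ICI_E2 climb from -0.09 and -0.10 in the shortest bin to 0.12 and 0.11 in the longest, while ICI_E2 over NC_E2 stays between -0.01 and 0.01.

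Whether tamoxifen differs from the vector in the same way without β-estradiol was examined in libraries that share none with the first comparison. There edgeR called 1 of 12183 genes (0.00821%), Ccdc71, and 430 (3.53%) had an unadjusted p under 0.05. Ccdc71 was at 4.35, 3.80 and 3.33 FPKM in NC and 11.2, 11.1 and 10.8 in Tamo (log2 fold change 1.53 ± 0.19, edgeR adjusted p = 0.00205). In β-estradiol it overlapped, at 8.96, 5.08 and 10.8 FPKM in NC_E2 and 7.44, 9.68 and 10.3 in Tamo_E2 (0.15 ± 0.19, edgeR adjusted p = 1). Its change of the arm difference was -1.38 ± 0.27 (edgeR adjusted p = 0.323).

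Across 7135 genes with a mean of at least 5 FPKM, the fold changes with and without β-estradiol had a Pearson r of -0.07 and a Spearman rho of -0.10, and 45% had the same sign. These are correlations across genes, which are not independent replicates, and the pairs of both comparisons carry the same replicate numbers. Of the 301 genes at an unadjusted p under 0.05 with β-estradiol, 116 had the same sign without it. Of those 301, 30 were also at an unadjusted p under 0.05 without β-estradiol, 6 with the same sign (Sat1, Gm43064, Gm22442, Map3k7, Wac and Hspg2) and 24 with the opposite sign.

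The difference of the 2 arm differences was itself tested. Of 12183 genes edgeR called 0 (0%), while 495 (4.06%) had an unadjusted p under 0.05. The smallest p belonged to Esco1, an acetyltransferase that establishes sister chromatid cohesion. Esco1 was at 10.3, 10.4 and 8.68 FPKM in NC_E2 and 11.5, 12.2 and 10.6 in Tamo_E2, without overlap (0.23 ± 0.10, edgeR adjusted p = 1). Without β-estradiol it was at 10.9, 11.7 and 9.88 FPKM in NC and 7.32, 7.94 and 7.08 in Tamo, apart in the other direction (-0.53 ± 0.10, edgeR adjusted p = 0.197). The difference between both was 0.77 ± 0.14 (edgeR adjusted p = 0.323). Tamo is the low group here, and ICI_E2 was at 10.4, 9.56 and 11.1 FPKM.

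Tamoxifen and ICI-182780, the triphenylethylene and the steroidal antiestrogen, were compared in the presence of β-estradiol at the same 24 h and with doses not in the labels. In this single pair of compounds 0 of 12183 genes passed in edgeR between Tamo_E2 and ICI_E2 (0%), and 246 (2.02%) had an unadjusted p under 0.05. The smallest p belonged to Eif1a, a translation initiation factor, at 61.3, 56.8 and 55.9 FPKM in Tamo_E2 and 20.9, 17.9 and 22.6 in ICI_E2 (1.499 ± 0.321, edgeR adjusted p = 1). NC_E2 held 54.3, 54.2 and 51.0 FPKM of Eif1a, and NC replicate 1 was low at 19.7 beside 52.0 and 53.1 in replicates 2 and 3. Hpgds differed by 0.29 ± 0.10 (edgeR adjusted p = 1), Npc1 by 0.35 ± 0.14 (edgeR adjusted p = 1) and Thap4 by -0.33 ± 0.15 (edgeR adjusted p = 1).

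For the 10 genes with the smallest p, Tamo_E2 minus NC_E2 and ICI_E2 minus NC_E2 share the NC_E2 libraries, so their values are only set side by side. They were 0.40 and 0.27 for Sema3d, 0.57 and 0.59 for Akap12, 0.79 and 0.45 for Sat1, 1.01 and 0.52 for Eif5, and 0.66 and 0.70 for Cadm4. For the lower genes they were -1.82 and -1.40 for Pagr1a, -1.06 and -0.68 for Sec22c, -0.51 and -0.18 for Thap4, -0.47 and -0.38 for Borcs5, and -0.70 and -0.35 for Cant1.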

How the data were processed

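RNA of the 24 libraries was measured by sequencing of total RNA extracted with TRIzol, per the labels' protocols. Trimming by cutadapt and alignment by HISAT2 on GRCm38 are recorded per the submitters' processing notes. The sources used here name no quantifier, annotation or strand protocol. The authors deposited 1 table of 55385 genes with FPKM values (fragments scaled to gene length and library size) and estimated counts per library, per the file headers. The deposited counts are whole numbers that pile up at multiples of 4, so they were taken as estimated counts and rounded.

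Genes with 1 FPKM or more in 3 of the 24 libraries were kept (12183). After TMM scaling, edgeR 4.0.16 fitted quasi-likelihood models to the counts of all libraries jointly, each group having 1 coefficient (16 residual degrees of freedom). Tests were two-sided, with Benjamini-Hochberg adjustment over all genes tested. SE was obtained by dividing the size of the log2 fold change by the root of its F value. An exact permutation test of a single value cannot go below p = 0.1 here (3 against 3). Totals of 44.7 to 58.5 M estimated counts gave a median SE of 0.21.

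Same-numbered libraries deviated together. The correlation of their deviations from the group means was 0.328, 0.123 and 0.197 for numbers 1 to 3 of Tamo_E2 and NC_E2. The numbers were used to describe pairs and as the block of an alternative. The main fit held no block, so its p-values, SE and intervals are unpaired. The median SE was 0.21 in the main fit and 0.15 with the block. The labels do not say what a number marks. The alternatives were a replicate block, DESeq2 1.42.0 and its size factors, limma 3.58.1 on log2(FPKM + 1) and log2(FPKM + 0.1), no filter, counts divided by 4, and subsets of the libraries; centring on transcript length (GENCODE, GRCm38, a length for 99.95% of coding genes) was added after seeing the data.

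Named genes were the 5 protein-coding genes per direction with the smallest p, since none passed, and Esr1, Greb1, Kit, Cpa3, Hmgcs1, Nlrp3 and Esco1; 1 further gene of the rule is not reported here. The groups compared, the gene lists and the tests were chosen with earlier results of these data known. Promoter sequences are RefSeq windows on GRCm38.p6, and 0 columns of other samples were present.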

Additional observations from a re-analysis of the deposited data

Results flagged for a closer look

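For 3 gene lists every same-numbered pair moved one way with β-estradiol and the opposite way without it; the difference between the conditions was not tested for any of them. Cohesin and chromatin cohesion genes had a median log2 fold change of 0.12 over 15 genes between Tamo_E2 and NC_E2, with pair medians of 0.14, 0.11 and 0.15, and of -0.17, -0.15 and -0.29 between Tamo and NC. The median of Tamo_E2 over NC_E2 was 0.015 without NC_E2 replicate 1, 0.022 without Tamo_E2 replicate 3, 0.198 without Tamo_E2 replicate 1 and 0.028 when centred on transcript length. ATF4 targets of the amino acid response had a median of -0.032 with pair medians of -0.02, -0.01 and -0.06, and pair medians of 0.10, 0.03 and 0.10 without β-estradiol. It turned to 0.0077 without NC_E2 replicate 1, 0.0445 without Tamo_E2 replicate 3 and 0.0037 when centred on transcript length, and was -0.092 without Tamo_E2 replicate 1. Glycolysis and hypoxia genes had a fitted median of 0.018, while their pair medians were -0.01, -0.03 and -0.02, and 0.13, 0.01 and 0.06 without β-estradiol. For the latter list the fitted and the paired medians thus differ in sign, and the fitted median ran from -0.122 without NC_E2 replicate 1 to 0.104 without NC_E2 replicate 3, with -0.099 without Tamo_E2 replicate 3.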

How the results depend on the processing

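Between Tamo_E2 and NC_E2, 0 genes passed with the replicate block, DESeq2 size factors, limma with either pseudocount, no filter, counts divided by 4, replicates 2 and 3 alone, and without any 1 of the 6 libraries (0 to 0); the count at an unadjusted p under 0.05 ran from 229 to 789. The DESeq2 Wald test called 2 genes (Gm43064 and Gm49384) and edgeR on the compared libraries alone 2 (Nup62 and Gm10045). Between Tamo and NC the count was 1, with the block 1, DESeq2 11, those libraries alone 0, and 1 to 3 with 1 library left out: 2 without NC replicate 2, 3 without Tamo replicate 1 and 3 without Tamo replicate 3. For the difference of the arm differences it was 0, with the block 0, DESeq2 16, those libraries alone 1, and 0 to 1 with 1 library left out, where leaving out NC_E2 replicate 2, NC_E2 replicate 3 or NC replicate 2 gave 1. Between Tamo_E2 and ICI_E2 it was 0, with the block 0, DESeq2 2, those libraries alone 1, and 0 to 0 with 1 library left out. The pairing through the replicate block changed none of these 4 counts. Of the named genes, the 10 with the smallest p kept their direction in the 16 alternatives run. They were chosen by p from these same libraries, so a kept direction is no separate evidence for them. Greb1 turned from 0.08 to -0.10 with replicates 2 and 3 alone and to -0.066 when centred on transcript length. With 1 library left out, Greb1 ran from -0.12 to 0.31, Cpa3 from -0.20 to 0.29, Hmgcs1 from -0.060 to 0.48 and Kit from -0.026 to 0.16; the cause was not tested. Of the 32 list medians, 13 kept their sign in the 16 alternatives run: estrogen response, coregulators, MAPK, lysosome, cohesin, ribosomal proteins, nuclear oxidative phosphorylation, mitochondrially encoded genes, G1 and MYC, p53, BCL2 family, xenobiotic metabolism and the macrophage and granulocyte list. The other 19 turned sign in at least 1. Cholesterol synthesis ran from -0.10 to 0.13, cholesterol uptake from -0.04 to 0.01, heat shock from -0.09 to 0.04, the unfolded protein response from -0.04 to 0.11, NRF2 from -0.10 to 0.01 and ATF4 targets from -0.09 to 0.04. The rest were S phase, mitosis, NF-kB, interferon, mast cell, glycolysis, fatty acid synthesis, inflammasome, MHC class I, ribosome biogenesis and the lymphoid, erythroid and fibroblast lists.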
